A study of Homo sapiens with 4 samples.

Results

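Named antisense transcripts are genes whose symbol joins the name of another gene to the ending -AS and a number, and 139 of the 8727 genes in the authors' deposited table carry such a name, leaving out EPB41L4A-AS1. For each of them the gene named before the ending, called the partner here, was looked up in the same table, and 90 antisense transcripts had a partner there, belonging to 88 partner genes. The libraries came from HepG2, a human liver cancer line labelled as hepatoblastoma, and were made from polyadenylated RNA. The groups are cells given 20 µM isoginkgetin for 24 h, with 2 libraries, and cells given the solvent DMSO, also with 2 libraries. Isoginkgetin is a biflavonoid from plants that is known to inhibit pre-mRNA splicing. No genetic change is named for either group, and the labels do not tell whether replicates were separate cultures. The p-values therefore set the difference between the groups against a spread within groups that may be technical.

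For each gene the authors' deposited table gives the normalized count averaged over the libraries, the log2 fold change, its standard error (SE) and an adjusted p-value. It holds only genes with an adjusted p under 0.05, which is 43.6% of the 20024 genes that its p-values imply were tested. Membership therefore rests on the same comparison that is described, the values below are a description with no further test, and antisense and partner genes that the table lacks have no value here. Values per library and total counts are not analysed here, so depth and spread per library cannot be given. Which group is the numerator is not stated in the table, and a positive fold change is read as higher in isoginkgetin than in DMSO, the usual order. Were DMSO the numerator, each direction given here would be reversed.

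An antisense transcript is read from the strand opposite to that of another gene. Many start close to the start of that gene and run away from it, from a promoter region that fires in both directions, and others run through the body or the far end of the gene. Such RNAs are typically spliced, polyadenylated and less abundant than the protein-coding partner, and some are known to act on the partner while many have no known role. Markers of cell types were looked up as well. Only genes past the p-value limit are held, so the presence or absence of a marker cannot check the cell line label. Of 13 hepatocyte markers 12 are in the authors' deposited table, at mean normalized counts of 442 to 157429, and 11 of them were lower. Of other cell types, it holds 1 of 8 fibroblast, 2 of 6 leukocyte, 2 of 5 endothelial and 1 of 4 keratinocyte markers, at mean normalized counts of at most 15328, and their part in the results was not tested.

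The named antisense transcripts were mostly lower after isoginkgetin. Of the 139, 93 (66.9%) were lower and 46 (33.1%) were higher, with a median log2 fold change of −0.93. Among all 8727 genes there, 48.5% were lower and the median was 0.21. As a share of all genes tested, 21.1% were called lower and 22.4% called higher. At 2-fold or more, 63 antisense transcripts were lower (45.3% of the 139) and 23 higher (16.5%), against 17.1% lower and 14.4% higher among all genes of the table. Of all genes tested, 7.43% were lower and 6.26% higher at that size. The range ran from −3.84 for SEMA3B-AS1 to 9.59 for MTUS2-AS1 in the authors' deposited table. The plot of fold change against level shows the antisense transcripts among the genes of low to middling level.

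**Figure D1:**
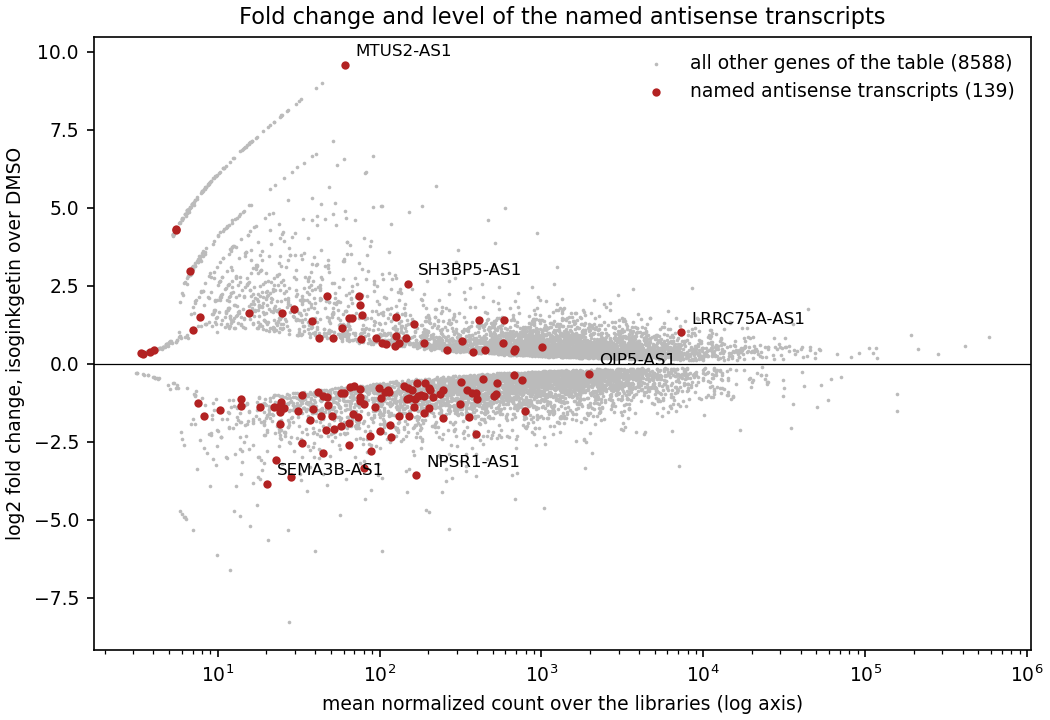
The log2 fold change (isoginkgetin over DMSO) is plotted against the mean normalized count over the libraries, on a log axis, for the 139 named antisense transcripts in red and the 8588 other genes of the table in grey. Most red points lie below 0, and MTUS2-AS1 at 9.59 stands far above the rest.

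Level differed between the antisense transcripts and the table as a whole, and the share of lower genes was larger among the antisense transcripts in each of 4 ranges of level. The median of their mean normalized counts was 93.5, against 741 over all genes of the table. At mean normalized counts under 30, 15 of 27 antisense transcripts were lower (55.6%), against 27.1% of the 856 other genes. Between 30 and 100 the share was 71.1% of 45 antisense transcripts, against 56.3% of 717 other genes. From 100 to 300 it was 73.2% of 41, against 63.7% of 1051 other genes. At 300 and over it was 61.5% of 26, against 47.6% of 5964 other genes. The plot of shares by level gives these values with counting intervals. Those of the antisense transcripts and the other genes were apart only under 30 and overlapped in the higher ranges. The differences were not tested.

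**Figure D2:**
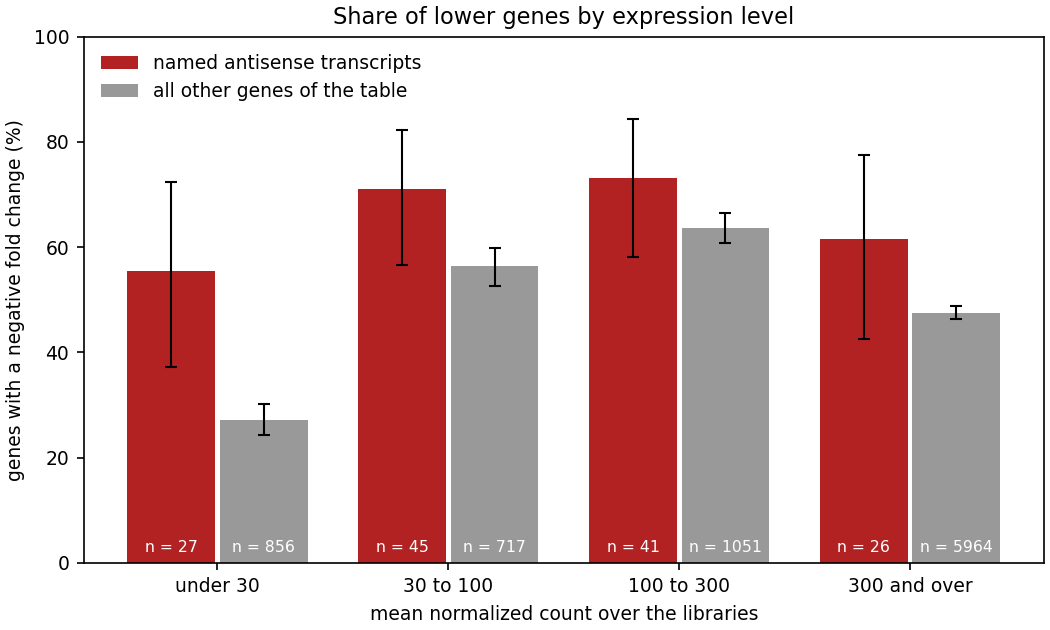
Bars give the percentage of genes with a negative log2 fold change in 4 ranges of the mean normalized count, for the named antisense transcripts on the left of each pair and all other genes of the table on the right. Whiskers are 95% Wilson intervals, which cover counting error only and take genes as independent. The antisense bar is the taller one in each of the 4 ranges.

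Other sets of genes picked by name, most of them classes of long non-coding RNA, leaned less or the other way. Of 81 genes with LINC names 44 were lower (54.3%, median −0.68). Of 628 genes whose names begin as clone names do (RP or AC and digits, or CTA to CTD), 261 were lower (41.6%, median 0.64). This last set was picked by letters alone and is no pure class of non-coding RNA. It takes in protein-coding genes such as CTBP1 and CTDSPL. All 13 hosts of small nucleolar RNAs with SNHG names were higher, with a median of 0.87, and of 6 intronic transcripts with names ending in -IT 5 were higher. No gene with a name ending in -OT is in the table. Level was not matched between these classes and the antisense transcripts, and the differences were not tested.

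Precision followed the level. The antisense fold changes had a median SE of 0.82 where the mean normalized count was under 30, and of 0.15 where it was 300 and over. Fold changes of weakly expressed transcripts look shrunken towards 0: the ratio of absolute fold change to SE had a median of 0.554 times the normal deviate that matches its p-value under 30, and 0.971 times at 300 and over. For 27 antisense transcripts the fold change is under 2 SE although the adjusted p is under 0.05, all at mean normalized counts of at most 69.2. The 11 with mean normalized counts under 10 are in this state and are read for direction only. Closest to the table's limit were SMC5-AS1, SUCLG2-AS1 and IDI2-AS1, with adjusted p-values of 0.0467, 0.0482 and 0.0489 in the authors' deposited table, and no gene beyond the limit is held.

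Among the 90 pairs, both genes were lower in 42 and both higher in 17, so that 59 pairs (65.6%) went the same way. In 23 pairs the antisense transcript was lower and the partner higher, and in 8 it was higher and the partner lower. The shares of higher and lower genes in these pairs would give 52.5% of pairs the same way if the members of a pair were unrelated. Partners themselves split into 40 higher and 48 lower, with a median of −0.36. The antisense transcript had the larger absolute change in 69 of 90 pairs, with a median absolute log2 fold change of 1.13 against 0.65 for the partners. SEs were wider at low counts and only genes past the p-value limit are held, so this comparison of sizes cannot be separated from level and limit. Their part in the larger antisense changes was not tested. With both mean normalized counts at 100 or more, the antisense change was the larger in 24 of 40 pairs, a setting added after the values were seen. Over the 90 pairs the fold changes correlated with Pearson's r of 0.68 and a Spearman coefficient of 0.40, and without the MTUS2 pair these were 0.40 and 0.38. These points share the same 4 libraries, and pairs are not independent replicates.

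**Figure D3:**
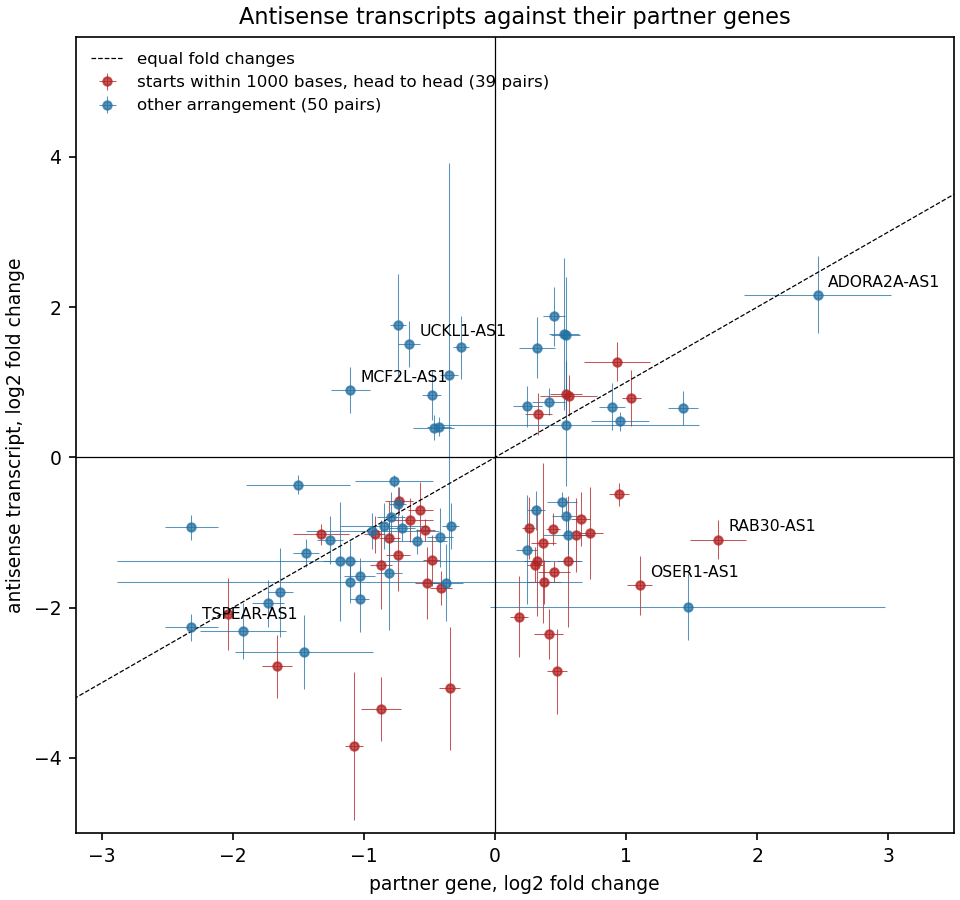
Each point is a pair, with the log2 fold change of the partner gene on the horizontal axis and that of the antisense transcript on the vertical axis, and bars of 1 SE. Red points are the 39 pairs that start head to head and blue points 50 other pairs, with the MTUS2 pair (9.01 and 9.59) outside the axes. The lower right field, with a lower antisense transcript and a higher partner, holds 17 red points, and the upper left field holds blue points only.

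The pairs differed by position. By the GENCODE 29 annotation (GRCh38), matched by current or older symbol, 39 of the 90 pairs start head to head, that is, on opposite strands with starts within 1000 bases of the gene they are named for. The other 51 pairs lie end to end, one inside the other or further apart. The submitters' processing notes name hg19, so the annotation used for counting may differ. In the 39 head-to-head pairs the antisense transcript was lower and the partner higher in 17, and the reverse was seen in none. Both were lower in 17 and both higher in 5. The antisense fold change lay below that of the partner in 33 of the 39 (84.6%), with a median difference, antisense minus partner, of −1.32 on the log2 scale. In the other 51 pairs it lay below in 28, with a median difference of −0.11, and there 6 pairs had the antisense transcript lower and the partner higher and 8 the reverse. Where both genes were lower, lying below the partner is the same as the larger change, and the part of level and of the p-value limit in it was not tested. The difference was more than 2 combined SE below 0 in 24 head-to-head pairs and more than 2 above 0 in none, and in the other 51 pairs these counts were 9 and 11. At mean normalized counts of at least 100 in both genes, 16 head-to-head pairs were left, and the antisense fold change lay below in 11 (68.8%).

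Of the 39 pairs 22 (56.4%) went the same way, against 211 (53.8%) of 392 further head-to-head pairs in the table without a named antisense transcript. In 27 of the 392 one gene is protein coding and the other is not. Their non-coding genes are of mixed kinds, so they are no like-for-like background. Among them are the mitochondrial tRNA genes MT-TC and MT-TN beside MT-CO1, other small RNAs such as RNU12, pseudogenes such as CIDECP, and hosts such as SNHG1. Against the 84.6% of the named antisense transcripts, the non-coding gene lay below its coding neighbour in 14 of those 27 (51.9%). Both shares rest only on genes past the p-value limit. With both mean normalized counts at 100 or more they came to 11 of 16 (68.8%) for the named antisense transcripts and 4 of 13 (30.8%) for the other non-coding genes. The difference between these shares was not tested. Neither count holds 12 cases in which a named antisense transcript starts head to head with a table gene other than its namesake, 6 of them from the 51 pairs above. Of these 12, 10 went the same way and 2 opposite ways, and the antisense fold change lay below that of the neighbour in 7. MCM3AP-AS1, for example, starts head to head with LSS, an enzyme of cholesterol synthesis, at −1.35, and MZF1-AS1, at −0.83, with UBE2M, which conjugates NEDD8, at 0.69 in the authors' deposited table. Both were chosen after their values were seen.

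Reads carry no strand here, because the library kit was non-directional per the labels, so reads from stretches where both genes have exons cannot be told apart. Exons overlap in 55 of the 90 pairs, by a median of 6.63% of the antisense exon bases, and in 35 pairs they do not overlap. The 35 pairs without exon overlap went the same way in 26 cases (74.3%), against 33 of 55 pairs (60.0%) with overlap. In head-to-head pairs without exon overlap the antisense fold change lay below the partner in 15 of 19. Per kilobase of annotated exon, the mean normalized count of the antisense transcript was below that of the partner in 68 of 90 pairs, at a median of 14.9% of it.

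The head-to-head pairs that went opposite ways come first, and all 17 have the antisense transcript lower. SRP14-AS1 had a log2 fold change of −2.85 (SE 0.56), while SRP14, a subunit of the signal recognition particle, was at 0.47 (SE 0.07) per the authors' deposited table. Their annotated exons do not overlap, and RefSeq now names the transcript SRP14-DT, for divergent transcript. RAB30-AS1 was at −1.10 (SE 0.26) and RAB30, a small GTPase of the Golgi, at 1.70 (SE 0.22) per the authors' deposited table. OSER1-AS1 stood at −1.70 (SE 0.39) and OSER1, known as an oxidative stress responsive gene, at 1.10 (SE 0.09) in the same authors' deposited table. These were the widest gaps among head-to-head pairs, −3.32 for SRP14, −2.81 for OSER1 and −2.79 for RAB30 on the log2 scale, antisense minus partner.

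To show how such pairs share a promoter region, RefSeq promoter windows (GRCh38.p14) are printed 5′ to 3′ on the strand of the named gene, from 250 bases before its start to 50 after it, with the start at position 251. Capitals mark the bases that the window shares with the window of the other gene of the pair, where they stand as the reverse complement. SRP14-AS1 lies on the plus strand at chr15:40039061-40039360 and SRP14 on the minus strand at chr15:40039153-40039452, with starts 109 bases apart and 208 shared bases. Position 142 of each window is the start of the other gene.
SRP14-AS1: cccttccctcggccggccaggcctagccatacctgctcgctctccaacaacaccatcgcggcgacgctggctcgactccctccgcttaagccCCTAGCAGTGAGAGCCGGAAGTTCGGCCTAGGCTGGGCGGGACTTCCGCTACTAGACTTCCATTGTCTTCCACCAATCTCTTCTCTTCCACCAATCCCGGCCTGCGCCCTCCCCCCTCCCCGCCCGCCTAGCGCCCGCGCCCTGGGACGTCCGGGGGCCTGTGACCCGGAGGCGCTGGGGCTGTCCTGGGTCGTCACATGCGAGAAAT
SRP14: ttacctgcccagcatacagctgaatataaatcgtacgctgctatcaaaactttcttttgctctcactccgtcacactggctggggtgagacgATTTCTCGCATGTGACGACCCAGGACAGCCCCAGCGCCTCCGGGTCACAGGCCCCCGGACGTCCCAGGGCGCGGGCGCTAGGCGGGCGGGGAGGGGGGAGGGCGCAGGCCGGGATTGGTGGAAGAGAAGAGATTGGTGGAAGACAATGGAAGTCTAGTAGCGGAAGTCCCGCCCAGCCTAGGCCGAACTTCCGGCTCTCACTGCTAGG
The windows of RAB30-AS1 (plus strand, chr11:83071816-83072115) and OSER1-AS1 (plus strand, chr20:44210710-44211009), chosen after their values were seen, share 268 and 288 bases with those of RAB30 and OSER1.
RAB30-AS1: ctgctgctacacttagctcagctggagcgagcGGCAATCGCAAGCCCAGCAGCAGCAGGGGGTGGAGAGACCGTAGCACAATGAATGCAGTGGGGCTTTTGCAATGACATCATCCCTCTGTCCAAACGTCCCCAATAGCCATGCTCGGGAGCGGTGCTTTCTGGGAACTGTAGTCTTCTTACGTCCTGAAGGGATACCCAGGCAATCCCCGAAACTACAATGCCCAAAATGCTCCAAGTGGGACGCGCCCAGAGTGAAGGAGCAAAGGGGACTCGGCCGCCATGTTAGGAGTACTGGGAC
OSER1-AS1: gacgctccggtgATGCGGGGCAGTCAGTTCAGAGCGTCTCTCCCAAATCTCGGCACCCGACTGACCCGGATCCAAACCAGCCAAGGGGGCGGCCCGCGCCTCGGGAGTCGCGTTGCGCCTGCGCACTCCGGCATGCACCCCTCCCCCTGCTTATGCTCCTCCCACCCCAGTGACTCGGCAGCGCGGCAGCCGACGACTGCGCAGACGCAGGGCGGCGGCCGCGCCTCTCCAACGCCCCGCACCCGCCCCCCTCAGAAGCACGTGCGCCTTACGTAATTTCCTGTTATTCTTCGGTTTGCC
Among pairs with a window for both genes that could be printed, the 2 same-way pairs with the largest absolute antisense change were SEMA3B and TMEM51, and STARD4 came next to SRP14 among the opposite-way pairs. Their windows share no bases and hold no capitals. The starts lie 5748 bases apart in RefSeq for SEMA3B, 1283 for TMEM51 and 309 for STARD4, where GENCODE gives 187, 705 and 364. These windows are printed to show what windows without shared bases look like. On the minus strand lie SEMA3B-AS1 (chr3:50267322-50267621), TMEM51-AS1 (chr1:15152415-15152714) and STARD4 (chr5:111512486-111512785). On the plus strand lie SEMA3B (chr3:50272869-50273168), TMEM51 (chr1:15153497-15153796) and STARD4-AS1 (chr5:111511976-111512275).
SEMA3B-AS1: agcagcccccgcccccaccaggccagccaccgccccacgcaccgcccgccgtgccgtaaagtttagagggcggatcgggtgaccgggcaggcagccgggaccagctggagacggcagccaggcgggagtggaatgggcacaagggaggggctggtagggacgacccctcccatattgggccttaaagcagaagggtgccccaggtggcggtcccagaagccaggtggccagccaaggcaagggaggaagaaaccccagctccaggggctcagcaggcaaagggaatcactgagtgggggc
SEMA3B: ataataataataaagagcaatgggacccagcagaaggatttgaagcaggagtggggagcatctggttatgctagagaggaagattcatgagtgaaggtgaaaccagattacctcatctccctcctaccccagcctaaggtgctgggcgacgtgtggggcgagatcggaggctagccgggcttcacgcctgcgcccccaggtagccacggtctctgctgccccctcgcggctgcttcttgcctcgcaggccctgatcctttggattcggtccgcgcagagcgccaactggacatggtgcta
TMEM51-AS1: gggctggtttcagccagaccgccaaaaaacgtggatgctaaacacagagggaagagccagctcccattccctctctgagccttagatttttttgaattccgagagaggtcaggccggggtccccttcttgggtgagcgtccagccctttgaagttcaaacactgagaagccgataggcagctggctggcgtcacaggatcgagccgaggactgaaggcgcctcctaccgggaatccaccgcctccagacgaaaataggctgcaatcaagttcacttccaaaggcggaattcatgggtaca
TMEM51: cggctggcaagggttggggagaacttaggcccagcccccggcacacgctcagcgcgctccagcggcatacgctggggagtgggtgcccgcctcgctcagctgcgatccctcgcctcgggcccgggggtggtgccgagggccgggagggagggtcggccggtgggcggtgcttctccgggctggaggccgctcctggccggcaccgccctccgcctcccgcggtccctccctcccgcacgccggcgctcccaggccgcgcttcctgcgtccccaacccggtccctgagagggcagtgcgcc
STARD4-AS1: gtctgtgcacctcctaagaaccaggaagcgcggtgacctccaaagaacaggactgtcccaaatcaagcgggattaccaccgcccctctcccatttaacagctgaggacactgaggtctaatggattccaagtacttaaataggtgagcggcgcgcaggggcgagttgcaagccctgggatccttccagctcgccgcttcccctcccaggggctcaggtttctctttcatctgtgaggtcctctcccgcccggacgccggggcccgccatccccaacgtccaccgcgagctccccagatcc
STARD4: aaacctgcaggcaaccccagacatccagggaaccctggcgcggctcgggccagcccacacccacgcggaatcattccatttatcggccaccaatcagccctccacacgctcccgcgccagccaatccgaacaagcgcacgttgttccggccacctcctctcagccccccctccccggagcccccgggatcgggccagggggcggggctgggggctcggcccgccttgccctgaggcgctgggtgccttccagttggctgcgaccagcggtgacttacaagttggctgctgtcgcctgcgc

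RefSeq gives a window for 106 of the 139 antisense transcripts, and for both genes of 59 pairs. The windows share bases in 25 of these 59 pairs, a median of 203, and in these 25 the antisense fold change lay below that of the partner in 22. Of the 25, 14 had the antisense transcript lower and the partner higher, and 0 the reverse. GC content had a median of 67.7% in the 46 windows of antisense transcripts head to head with their namesake, 59.3% in the 59 of the others, 65.0% over all table genes with a window and 58.3% over all RefSeq windows. The letters CCGGAAG, the core of sites for ETS factors such as GABP, were searched on both strands. They occur in 12 of the 46 head-to-head antisense windows (26.1%), in 4 of the 59 others (6.78%), in 19.7% of the windows of all table genes and in 10.7% of all RefSeq windows. Of the 70 windows of partner genes in any arrangement, 8 hold them (11.4%), a lower share than over all table genes. The letters CCAAT, on both strands, occur in 37 of 106 antisense windows (34.9%), in 37.0% of the windows of all table genes and in 35.7% of all RefSeq windows. The letters TGATGNAA, as found at ATF4 target genes, occur in 1 antisense window (0.943%), in 1.81% of the windows of all table genes and in 3.67% of all RefSeq windows. A match is a description of the letters and no site.

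STARD4-AS1, whose 5′ end overlaps that of STARD4, a carrier of cholesterol between membranes, was at −2.35 (SE 0.33) and STARD4 at 0.41 (SE 0.11) per the authors' deposited table. Annotated exons of STARD4-AS1 also overlap those of NREP by 888 bases, and NREP was at −1.53 in the authors' deposited table. TMPO-AS1 stood at −2.12, while TMPO, which encodes proteins of the nuclear lamina, was at 0.18 in the authors' deposited table. That small partner change turns to −0.031 when fold changes are centred on the table's median. COX10-AS1 was at −1.66 and COX10, an enzyme of heme A synthesis, at 0.37 in the authors' deposited table. GABPB1-AS1, which had the highest mean normalized count of the head-to-head antisense transcripts, 793, was at −1.52 (SE 0.14) per the authors' deposited table. Its partner GABPB1 encodes a subunit of the transcription factor GABP and was at 0.45 (SE 0.12) per the authors' deposited table, with a mean normalized count of 841. WAC-AS1 was at −1.43 and WAC, an adaptor for histone H2B ubiquitination, at 0.31 in the authors' deposited table.

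In the other 9 of these 17 pairs the difference exceeded 2 combined SE, except at SMC5. TPT1-AS1 was at −0.96 (SE 0.21), while TPT1, the translationally controlled tumour protein gene, was at 0.44 (SE 0.05) per the authors' deposited table. EIF1B-AS1 was at −1.38 and EIF1B, a paralog of the initiation factor eIF1, at 0.32 in the authors' deposited table. RBM26-AS1 stood at −1.39 with a wide SE of 0.87, and RBM26, an RNA-binding protein gene, at 0.56 in the authors' deposited table. SRRM2-AS1 was at −0.94 and SRRM2, a protein of nuclear speckles, at 0.26 in the authors' deposited table. The pair of RNASEH1, an enzyme that cuts RNA in RNA-DNA hybrids, had −0.49 for the antisense transcript and 0.95 for the gene in the authors' deposited table. CCNT2-AS1 was at −1.01 and CCNT2, a cyclin of the elongation kinase P-TEFb, at 0.73 in the authors' deposited table. NUP50-AS1 was at −0.82 and NUP50, a nucleoporin, at 0.65 in the authors' deposited table. ZNF561-AS1 was at −1.04 and the zinc finger gene ZNF561 at 0.62 in the authors' deposited table. SMC5-AS1 was at −1.14 with an SE of 1.07, and SMC5, of the SMC5/6 complex, at 0.37 in the authors' deposited table.

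In 17 head-to-head pairs both genes were lower. SEMA3B-AS1 had the lowest fold change of all antisense transcripts, −3.84 (SE 0.99) with a mean normalized count of 20.1, and SEMA3B, a secreted semaphorin, was at −1.08 (SE 0.07) per the authors' deposited table. TMEM51-AS1 was at −3.35 (SE 0.43) and TMEM51 at −0.87 in the authors' deposited table. Exons of TMEM51-AS1 overlap KAZN by 3452 bases, and KAZN was at −1.42 in the authors' deposited table. DARS-AS1 was at −3.08 and DARS, the cytosolic aspartyl-tRNA synthetase, at −0.35 in the authors' deposited table. TMCC1-AS1 was at −2.78 and TMCC1, an endoplasmic reticulum membrane protein gene, at −1.67 in the authors' deposited table. In these 4 pairs the antisense change was the larger one.

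A closer match was seen at SLC2A1, which encodes the glucose transporter GLUT1. SLC2A1-AS1 was at −2.09 (SE 0.48) and SLC2A1 at −2.04 (SE 0.04), at mean normalized counts of 52 and 34671, in the authors' deposited table. Their annotated exons overlap by 128 bases, and reads from these bases cannot be told apart. GMDS-AS1 and GMDS, an enzyme of GDP-fucose synthesis, stood at −1.03 and −0.92 in the authors' deposited table. SUCLG2-AS1 was at −0.70 and SUCLG2, a subunit of succinyl-CoA ligase, at −0.57 in the authors' deposited table. FAM83H-AS1, annotated in GENCODE as protein coding, was at −1.07 and FAM83H at −0.81 in the authors' deposited table. FBXL19-AS1 was at −0.58 and FBXL19, an F-box gene, at −0.73 in the authors' deposited table. LBX2-AS1 was at −1.03 and the homeobox gene LBX2 at −1.33 in the authors' deposited table, with the antisense transcript the more abundant per kilobase of exon. Exons are in common over 31.2% of the antisense exon bases, so both levels may include reads that cannot be told apart. In each of these 6 pairs the difference was under 2 combined SE.

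A further 6 both-lower pairs had the antisense transcript further down, by under 2 combined SE at KLF3 and WWC2. NNT-AS1 was at −1.74 (SE 0.23) and NNT, the mitochondrial transhydrogenase that makes NADPH, at −0.41 in the authors' deposited table. UBL7-AS1 was at −1.67 and UBL7 at −0.52 in the authors' deposited table. KLF3-AS1 was at −1.43 and KLF3, a Krüppel-like transcription factor, at −0.87 in the authors' deposited table. MLLT4-AS1 was at −1.37 and MLLT4, which encodes the junction protein afadin, at −0.48 in the authors' deposited table. WWC2-AS2 was at −1.31 and WWC2 at −0.74 in the authors' deposited table. CTBP1-AS2 was at −0.96 and CTBP1, a transcriptional corepressor, at −0.53 in the authors' deposited table.

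Both genes were higher in 5 head-to-head pairs, each with a difference under 2 combined SE. DNAJC3-AS1 was at 0.79 (SE 0.37) and DNAJC3, a co-chaperone of the endoplasmic reticulum, at 1.04 (SE 0.07) per the authors' deposited table. The RefSeq window of DNAJC3-AS1 (minus strand, chr13:95676876-95677175), chosen after its values were seen, shares 287 bases with that of DNAJC3, in capitals here.
DNAJC3-AS1: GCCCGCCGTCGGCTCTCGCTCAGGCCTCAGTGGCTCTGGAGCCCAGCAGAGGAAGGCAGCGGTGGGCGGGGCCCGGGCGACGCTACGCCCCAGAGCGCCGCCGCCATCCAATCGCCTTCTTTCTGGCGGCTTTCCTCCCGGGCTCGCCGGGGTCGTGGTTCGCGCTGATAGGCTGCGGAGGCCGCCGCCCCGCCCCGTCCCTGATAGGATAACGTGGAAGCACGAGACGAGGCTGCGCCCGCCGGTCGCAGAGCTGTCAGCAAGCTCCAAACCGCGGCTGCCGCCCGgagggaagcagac
ZNF674-AS1 was at 1.27 and the zinc finger gene ZNF674 at 0.93 in the authors' deposited table. TRIM52-AS1 was at 0.82 and TRIM52 at 0.56 in the authors' deposited table. RNF139-AS1 was at 0.84 and RNF139, a ubiquitin ligase of the endoplasmic reticulum, at 0.54 in the authors' deposited table. CAPN10-AS1 was at 0.58 and the protease gene CAPN10 at 0.33 in the authors' deposited table. Of all 20 antisense transcripts that RefSeq now names -DT, 16 were lower and 4 higher.

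**Figure D4:**
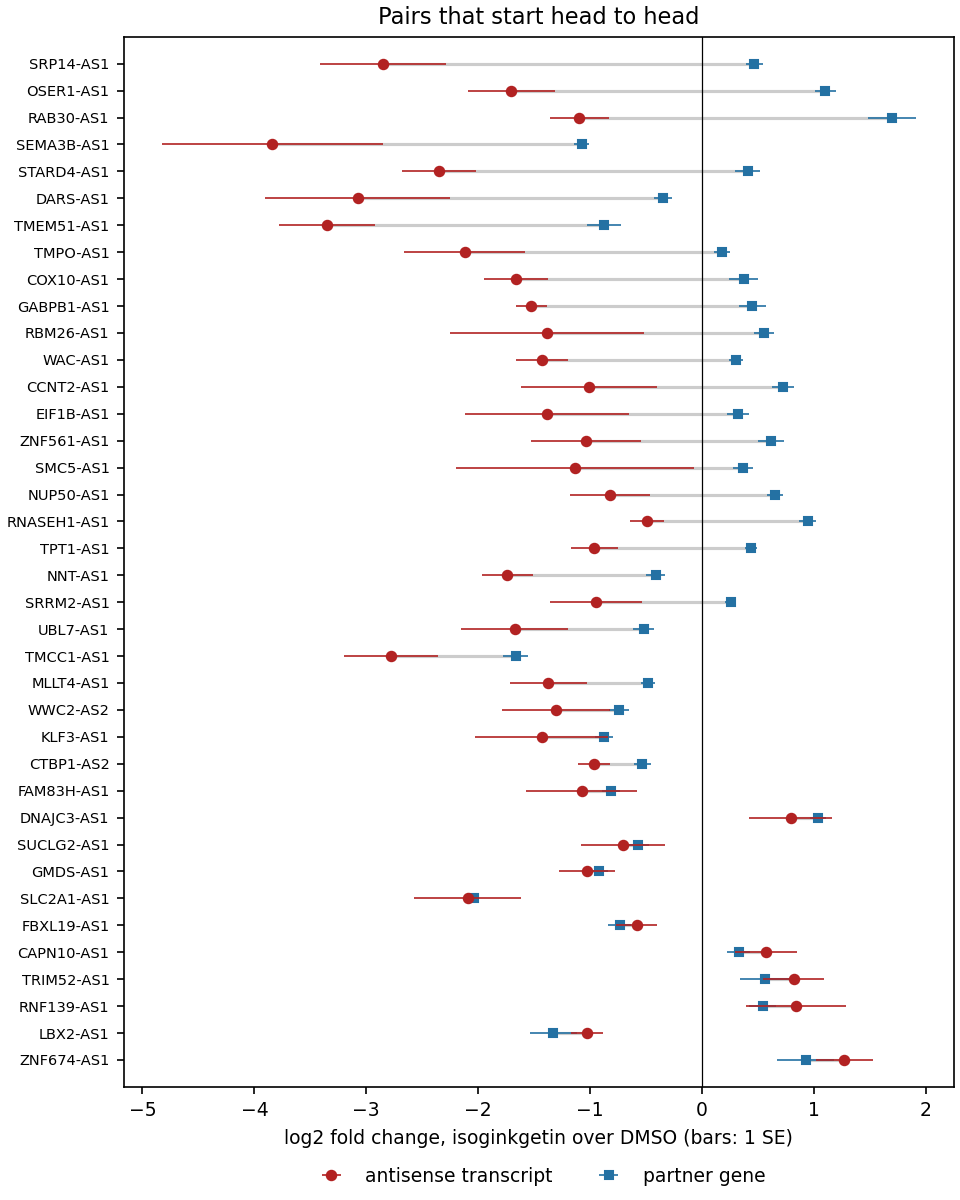
Of the 39 head-to-head pairs 38 are listed by the difference between antisense transcript and partner, most negative at the top, with log2 fold changes (isoginkgetin over DMSO) of the antisense transcript as red circles and of the partner as blue squares, and bars of 1 SE. Circles lie left of their squares in 32 rows, from SRP14-AS1 at the top to SLC2A1-AS1, where they nearly coincide.

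Among the 51 pairs in other arrangements both genes were lower in 25, and some of these partners have known roles in liver. PROX1-AS1 was at −1.89 and PROX1, a homeobox factor of liver and lymphatic development, at −1.03 in the authors' deposited table. HPN-AS1 was at −1.10 and HPN, the membrane protease hepsin, at −1.26 in the authors' deposited table, with exons in common over 31% of the antisense exon bases. C1RL-AS1 was at −1.94 and C1RL, a protease like the complement component C1r, at −1.73 in the authors' deposited table. GK-AS1 was at −1.80 and GK, glycerol kinase, at −1.64 in the authors' deposited table. These 4 pairs were picked out by tissue after their values were seen, so their direction is no independent support.

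Further both-lower pairs name genes of other functions. EGFR-AS1 was at −0.91 and EGFR, the epidermal growth factor receptor, at −0.85 in the authors' deposited table. PIK3CD-AS2 was at −1.07 and PIK3CD, a catalytic subunit of phosphoinositide 3-kinase, at −0.42 in the authors' deposited table. MYLK-AS1 was at −1.39 and MYLK, myosin light chain kinase, at −1.18 in the authors' deposited table. C1QTNF1-AS1 was at −2.59 and C1QTNF1, a secreted relative of adiponectin, at −1.46 in the authors' deposited table. LGALS8-AS1 was at −1.54 and LGALS8, galectin-8, at −0.81 in the authors' deposited table, with 46.2% of the antisense exon bases in common. RNF144A-AS1 was at −1.28 and RNF144A, a ubiquitin ligase gene, at −1.44 in the authors' deposited table. ZMIZ1-AS1 was at −0.62 and ZMIZ1, a transcriptional coactivator, at −0.74 in the authors' deposited table. SBF2-AS1 was at −0.79 and SBF2, which has exons in common with 32.2% of the antisense exon bases, at −0.79 in the authors' deposited table.

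A partner with several antisense transcripts was TSPEAR, at −2.32 (SE 0.20) per the authors' deposited table. TSPEAR-AS1 was at −2.26 (SE 0.18) and TSPEAR-AS2 at −0.93 (SE 0.16), at mean normalized counts of 394 and 395, in the authors' deposited table. Both lie inside TSPEAR, and exons overlap for 13.6% of the bases of TSPEAR-AS1 and 0.529% of those of TSPEAR-AS2. The TSPEAR-AS2 value was 5.27 combined SE above that of TSPEAR. DLGAP1, which encodes a scaffold of synapses, had a mean normalized count of 8.03 and was at −1.11 (SE 1.77) per the authors' deposited table. DLGAP1-AS1 was at −1.66 (SE 0.27) and DLGAP1-AS2 at −1.37 (SE 0.25), with mean normalized counts of 151 and 163 in the authors' deposited table. Per kilobase of annotated exon, too, both antisense transcripts stood above DLGAP1.

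The remaining both-lower pairs of this kind are given by their values. CCDC183-AS1 was at −2.31 and CCDC183 at −1.92 in the authors' deposited table, with exons in common over 26.1% of the antisense exon bases. SP2-AS1 was at −1.67 and SP2, a transcription factor that binds GC-rich sites, at −0.38 in the authors' deposited table. DHRS4-AS1 was at −1.12 and DHRS4, a carbonyl reductase with near-identical neighbouring copies that make counts uncertain, at −0.59 in the authors' deposited table. ASB16-AS1 was at −0.99 and ASB16 at −0.94 in the authors' deposited table, with exons in common over 31.1% of the antisense exon bases. NRSN2-AS1 was at −0.94 and NRSN2 at −0.71 in the authors' deposited table. KTN1-AS1 was at −0.92 and KTN1, which encodes the kinesin-binding protein kinectin, at −0.34 in the authors' deposited table. GENCODE puts the starts of this pair 21038 bases apart, whereas its RefSeq windows share 214 bases. TP73-AS1 was at −0.36 and TP73, a relative of p53, at −1.50 in the authors' deposited table. OIP5-AS1 was at −0.31 (SE 0.08) and OIP5, a factor for centromere assembly, at −0.77 in the authors' deposited table.

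Both genes were higher in 12 pairs of other arrangements. The extreme case was MTUS2-AS1 at 9.59 (SE 2.82, mean normalized count 61.5), inside MTUS2, a microtubule-binding protein gene, at 9.01 (SE 2.78, mean normalized count 44.3) per the authors' deposited table. Exons overlap over 4.13% of the antisense exon bases, and both SEs are wide, so these sizes cannot be read as plain ratios. ADORA2A-AS1 was at 2.16 (SE 0.51) and ADORA2A, an adenosine receptor, at 2.46 (SE 0.56) per the authors' deposited table. Exons of ADORA2A-AS1 also overlap those of UPB1, an enzyme of pyrimidine breakdown, by 385 bases, and UPB1 was at 1.41 in the authors' deposited table. SLC25A25-AS1 was at 0.66 and SLC25A25, a mitochondrial ATP and phosphate carrier, at 1.44 in the authors' deposited table. PSMD6-AS2 was at 1.88 and PSMD6, a subunit of the proteasome's regulatory particle, at 0.45 in the authors' deposited table. PSMD5-AS1 was at 0.74 and PSMD5, a chaperone of proteasome assembly, at 0.41 in the authors' deposited table.

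In a further 6 both-higher pairs the partner's log2 fold change was under 1. PAXBP1-AS1 was at 0.67 and PAXBP1 at 0.89 in the authors' deposited table. TOPORS-AS1, annotated in GENCODE as protein coding, was at 1.46 and TOPORS, a ubiquitin and SUMO ligase, at 0.32 in the authors' deposited table. LCMT1-AS2 was at 1.63 and LCMT1, the methyltransferase of protein phosphatase 2A, at 0.54 in the authors' deposited table. EDRF1-AS1 was at 1.64 and EDRF1 at 0.53 in the authors' deposited table, with exons in common over 44.7% of the antisense exon bases. CCDC144NL-AS1 was at 0.48 and CCDC144NL at 0.95 in the authors' deposited table. TRPC7-AS1 was at 0.43 and the channel gene TRPC7 at 0.54 in the authors' deposited table, with mean normalized counts of 4.07 and 4.75, so these are read for direction only.

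In 8 pairs, none of them head to head, the antisense transcript was higher and the partner lower. UCKL1-AS1 was at 1.51 (SE 0.30) and UCKL1, a uridine kinase-like gene, at −0.65 (SE 0.08) per the authors' deposited table. MCF2L-AS1 was at 0.89 (SE 0.31) and MCF2L, an exchange factor for small GTPases, at −1.10 (SE 0.15) per the authors' deposited table. The gaps amount to 6.87 combined SE at UCKL1 and 5.86 at MCF2L. SVIL-AS1 was at 0.41 and SVIL, which encodes the actin-binding protein supervillin, at −0.43 in the authors' deposited table. SH3PXD2A-AS1 was at 1.76 and SH3PXD2A, a scaffold of invadopodia, at −0.74 in the authors' deposited table. PLCG1-AS1 was at 1.46 and PLCG1, phospholipase C gamma, at −0.26 in the authors' deposited table. KIZ-AS1 was at 0.83 and KIZ, a centrosome gene, at −0.48 in the authors' deposited table. ARRDC1-AS1 was at 0.40 and ARRDC1, an arrestin-domain gene, at −0.47 in the authors' deposited table. BIRC6-AS2 was at 1.10 with an SE of 2.82 and BIRC6, a large inhibitor of apoptosis protein, at −0.35 in the authors' deposited table, a pair read for direction only.

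In 6 pairs of other arrangements the antisense transcript was lower and the partner higher. GATA2-AS1 was at −0.60 (SE 0.14) and GATA2, a transcription factor, at 0.51 (SE 0.11), with no common exon bases, in the authors' deposited table. ZNRD1-AS1 was at −1.03 and ZNRD1, a subunit of RNA polymerase I, at 0.56 in the authors' deposited table. NIFK-AS1 was at −0.78 and NIFK, a nucleolar protein that binds Ki-67, at 0.54 in the authors' deposited table. MCM3AP-AS1 was at −0.71 and MCM3AP, a factor of mRNA export, at 0.31 in the authors' deposited table. MID1IP1-AS1 was at −1.23 and MID1IP1, which activates acetyl-CoA carboxylase, at 0.24 in the authors' deposited table, with 40.2% of the antisense exon bases in common. ITGA9-AS1 was at −1.99 and ITGA9, an integrin subunit with a mean normalized count of 9.73, at 1.47 (SE 1.51) per the authors' deposited table. Like MCM3AP-AS1 with LSS, ITGA9-AS1 starts head to head with another gene, CTDSPL, at −1.22, and NIFK-AS1 with CLASP1, at −0.40 in the authors' deposited table.

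**Figure D5:**
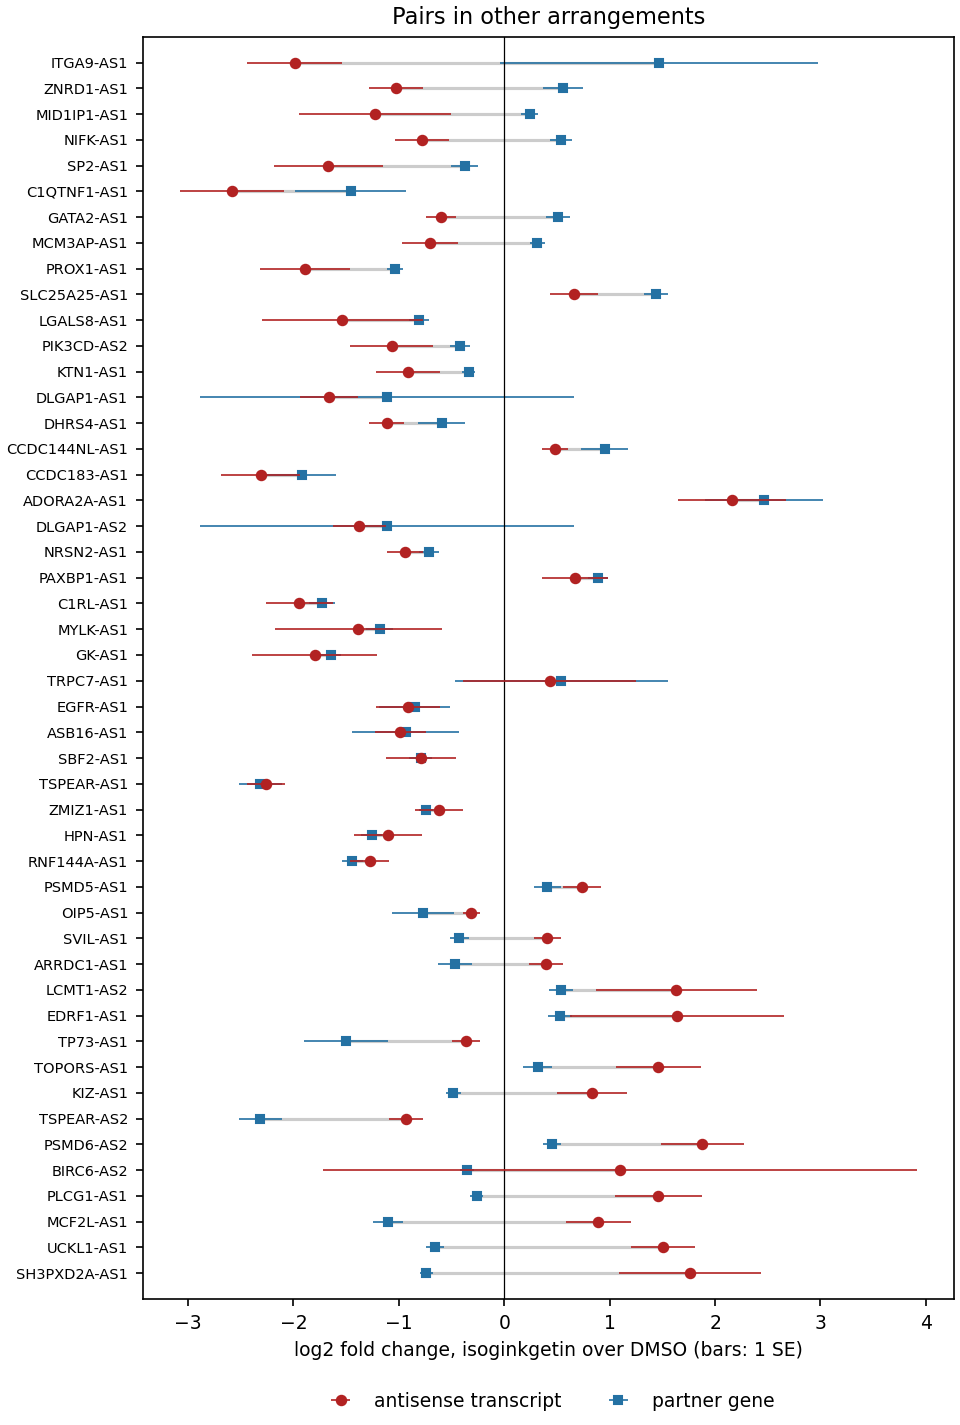
Of the 51 pairs in other arrangements 48 are listed, without the MTUS2 pair among others, by the difference between antisense transcript and partner, most negative at the top, with log2 fold changes (isoginkgetin over DMSO) of the antisense transcript as red circles and of the partner as blue squares, and bars of 1 SE. Circles lie left of their squares in the upper part of the list and right of them in the lower part, from ITGA9-AS1 to SH3PXD2A-AS1.

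For 49 antisense transcripts no partner is in the table, and 28 of these were lower and 21 higher. The lowest 6 were ZBED5-AS1 at −3.64, NPSR1-AS1 at −3.56 (SE 0.32), THRB-AS1 at −2.55, MRPL23-AS1 at −2.16, TAPT1-AS1 at −1.94 and JHDM1D-AS1 at −1.71 (SE 0.18) per the authors' deposited table. The genes they are named for encode, among others, a neuropeptide receptor (NPSR1), a thyroid hormone receptor (THRB), a mitochondrial ribosomal protein (MRPL23) and a histone demethylase (JHDM1D). The highest 6 were RAB6C-AS1 at 4.32, EHD4-AS1 at 4.29, KCNMB2-AS1 at 2.98, SH3BP5-AS1 at 2.57 (SE 0.30), PARD6G-AS1 at 2.18 (SE 0.40) and LAMTOR5-AS1 at 1.56 in the authors' deposited table. The first 3 of these have mean normalized counts of 5.52, 5.5 and 6.77 with SEs over 2 and are read for direction only. The antisense transcript with the highest mean normalized count was LRRC75A-AS1, which RefSeq now names SNHG29, a host of small nucleolar RNAs, at 1.02 (SE 0.06) with a mean normalized count of 7313 in the authors' deposited table. It was named after its values were seen.

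The remaining 36 without a partner in the table ranged from −1.67 for C21orf62-AS1 to 1.49 for IL21R-AS1 in the authors' deposited table, both at mean normalized counts under 10. Exons of 14 of the 139 antisense transcripts overlap those of a table gene other than the partner, and 11 of the 14 had the sign of that gene. Reads from the common bases cannot be told apart, and whether this share exceeds that of unrelated genes was not tested. PRKG1-AS1, for example, was at −1.20 and shares 212 exon bases with DKK1, a secreted Wnt inhibitor, at −1.14 in the authors' deposited table. THAP9-AS1 was at 1.39 and shares 482 exon bases with SEC31A, a coat protein of transport vesicles, at 0.52 in the authors' deposited table. IDI2-AS1 was at 0.83 and shares 643 exon bases with IDI1, an enzyme of isoprenoid synthesis, at −0.34 in the authors' deposited table. These examples, like the other genes outside the pairs, were named after their values were seen.

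Of 29 long non-coding RNAs listed as better characterised, most of them antisense, 11 are in the table, 8 lower and 3 higher, with a median of −0.71. OIP5-AS1, known as cyrano in zebrafish, TP73-AS1, MCM3AP-AS1, SBF2-AS1, TMPO-AS1, DLGAP1-AS1 and DLGAP1-AS2 were among the lower ones, with the values given above. The higher ones were THAP9-AS1, MAPKAPK5-AS1 at 1.41 (SE 0.18) and FOXD2-AS1 at 0.44 (SE 0.20) per the authors' deposited table. Of 10 antisense transcripts of the HOX clusters, which hold the homeobox genes of body axis patterning, the table holds HOXA-AS2. It was at −1.06 (SE 0.23) and has 374 exon bases in common with HOXA3, at −1.44 (SE 0.19) per the authors' deposited table.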

How the data were processed

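RNA from HepG2 cells was sequenced in 2 libraries of isoginkgetin-treated cells and 2 of DMSO-treated cells, grouped by sample title, while the design text gave the dose and the time. Per the labels' protocols, polyadenylated RNA was isolated and the second-strand kit was non-directional. The tools STAR 2.7.0 and featureCounts are named, with the builds mm10 and hg19, per the submitters' processing notes. The annotation used for counting, and how reads shared between genes were treated, is not given in the sources used here. As deposited by the authors, there is 1 table with the columns of a DESeq2 results table, per the file headers. It holds the signal of each gene as a mean normalized count over all libraries, as deposited. The log2 fold change and its SE are the authors' own values, per the file headers. The p-value and the adjusted p-value are deposited per gene, and every adjusted p is under 0.05. Columns of other samples left unused numbered 0.

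From these values the number of genes tested, 20024, was recovered from the ratio of adjusted to raw p-values under the Benjamini-Hochberg rule. Tested on simulated data, this was exact in 200 of 200 tables, and 6 of 6 simulated gene arrangements were recovered. Pairs were joined by symbol, and the SE of a difference combined both SEs as if independent. Positions and exons came from GENCODE 29 and promoter windows from RefSeq GRCh38.p14, by current or older symbol, and all 139 antisense transcripts were placed. No coordinates were taken from hg19. Python 3.11.15, pandas 2.3.3, numpy 2.4.6, scipy 1.17.1 and matplotlib 3.10.9 were used.

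The planned count tests per library, with edgeR's quasi-likelihood test, a replicate block or a library left out, could not be run, as values per library are not analysed here. Named with values were all pairs but 3, which are not reported here one by one, the 6 lowest and 6 highest antisense transcripts without a partner in the table, and the members of both lists. Members and lists were chosen with earlier results of these data known, and the head-to-head limit, the motifs and the added windows were chosen after the values were seen. Alternatives tried were stricter p-values, level and fold limits, centring and other pair rules.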

Additional observations from a re-analysis of the deposited data

How the results depend on the processing

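No paired analysis was possible because the deposited table holds no values per library, and for the same reason no replicate could be left out and no other normalization tried. Of the 46 higher antisense transcripts, 29 stayed within an adjusted p under 0.01 and 17 within 0.001, 21 had a mean normalized count of at least 100, and 23 changed at least 2-fold. The 59 same-way pairs came to 26 at an adjusted p under 0.001, 25 where both means reached 100, 36 at 1.5-fold and 18 at 2-fold. The 31 opposite-way pairs came to 19 at 0.01, 10 at 0.001, 15 where both means reached 100, 9 at 1.5-fold and 3 at 2-fold. These falls follow from fewer genes passing.

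The median antisense fold change, −0.93, was −1.33 at 2-fold or more, and the share lower, 66.9%, was 76.7% at 0.001. The share of pairs going the same way, 65.6%, was 80.0% at 1.5-fold and 85.7% at 2-fold. Without head-to-head or overlapping pairs 1 same-way pair (ZMIZ1) and 0 opposite-way pairs were left, which makes 100% of 1. Without pairs with overlapping exons, an alternative chosen after seeing the data, 26 went the same way and 9 opposite ways. The share of head-to-head pairs with the antisense fold change below the partner, 84.6%, was 68.8% at mean normalized counts of at least 100, and the cause was not tested. Centred on the table's median of 0.21, the log2 fold change of TMPO turned to −0.031, and the other 226 of 227 antisense and partner genes kept their direction. An adjusted p under 0.01 lost 48 of these genes and one under 0.001 lost 86. Percentages under stricter limits and the runs without MTUS2-AS1 were likewise added after seeing the data. Depth per library is unknown, so its limit on these values cannot be given.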
